A study of Homo sapiens with 12 samples.

Results

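Genes of pericellular proteolysis, 10 in number, were followed in THP1 monocytes. They were the secreted metalloproteinases MMP1, MMP7, MMP9 and MMP19, the membrane-bound metalloproteinase MMP14, the tissue inhibitors of metalloproteinases TIMP1, TIMP2 and TIMP3, the urokinase gene PLAU and its receptor gene PLAUR. They were chosen by name, with earlier results of these data known, and make up 10 of the 58735 rows of the deposited count table. All 10 reached the total of 10 counts over the 12 libraries that was asked of a gene before testing, as did 25873 genes in all.

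THP1 is an established human monocytic leukaemia line, so every library came from cells of 1 line. The 4 groups held 3 libraries each. In the mono-culture group THP1 cells were kept alone in endothelial medium for 24 h. In the control EC group they shared a well for 24 h with human umbilical vein endothelial cells (ECs) that had received the vehicle DMSO. In the senEC group the ECs had been made senescent with etoposide at 10 µM for 24 h, a topoisomerase poison that damages DNA. In the EGCG-treated senEC group such ECs had then received 100 µM of epigallocatechin gallate, a green tea polyphenol, for 24 h. Each well held 500000 ECs and each insert 400000 THP1 cells, with a membrane of 1 µm pores between them. After the culture the THP1 cells of all 4 groups, mono-culture included, were given LPS at 100 ng/ml for 2 h, so the levels below are those of LPS-stimulated cells and no unstimulated library was compared. Nothing in the sources used here says whether same-group libraries came from separate cultures, so p-values measure the spread between these libraries.

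Metalloproteinases of this family cleave collagens, other matrix proteins and cell-surface proteins, and are held in check by TIMPs, which bind the active site. MMP14 sits in the cell membrane and, together with TIMP2, activates pro-MMP2. Urokinase, held at the cell surface by its receptor, turns plasminogen into plasmin, which degrades fibrin and activates some pro-MMPs. Monocytes use both systems when they leave vessels and enter tissue.

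Total counts ran from 15439836 to 22092600 per library. Counts were expressed as CPM, the count relative to a library total scaled by the trimmed mean of M values (TMM), and 3 counts, the upper limit that a count of 0 allows, came to 0.132 to 0.191 CPM, for counting error only. All 12 monocyte markers examined had counts in every group, but CD68 lay near that limit, at 0.108 to 0.857 CPM. LILRB1 was also low, at 1.36 to 4.71 CPM. CD14, the LPS co-receptor, averaged 8.92 CPM in mono-culture, 18.9 in the control EC group, 38.2 in the senEC group and 27.5 in the EGCG-treated senEC group. Its single libraries ran from 5.91 to 65.7 CPM. Of the 12 markers only CD14 passed the edgeR test between groups below, for senEC against mono-culture. The edgeR test for the replicate number below passed for 8 of the 12 markers, CD14 among them, against 9.61% of all genes. Of 20 endothelial markers, SOX17 and MMRN1 were at 0 counts in every library, CDH5 was at 0 in the control EC and senEC groups, and only PECAM1 and EGFL7 passed 10 CPM, which they also did in mono-culture. The sum of the 20 markers was 162 to 187 CPM in mono-culture, 159 to 183 for control ECs, 200.4 to 239.9 for senECs and 193 to 247 for EGCG-treated senECs. The other 18 markers summed to 7.72 to 14.02 CPM, and the ranges of the 4 groups overlapped. The part of these markers in the results below was not tested, and in bulk RNA fewer cells of a type and less RNA per cell cannot be told apart.

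RefSeq gave promoter windows, from 250 bases before to 50 bases after an annotated start (GRCh38.p14), for 6 of the 10 genes, and 3 stretches are shown because the results below turn on these genes. Capitals mark AP-1 matches (TGANTCA) and Sp1 matches (GGGCGG), searched on both strands.
TIMP3, chr22:32801551-32801700, plus strand: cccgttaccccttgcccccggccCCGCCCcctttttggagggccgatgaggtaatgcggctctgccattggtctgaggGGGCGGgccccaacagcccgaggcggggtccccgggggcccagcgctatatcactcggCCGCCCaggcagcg
MMP14, chr14:22836407-22836556, plus strand: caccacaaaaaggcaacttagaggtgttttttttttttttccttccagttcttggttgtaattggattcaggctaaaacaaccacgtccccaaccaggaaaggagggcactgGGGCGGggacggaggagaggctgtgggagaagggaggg
PLAUR, chr19:43670338-43670366, minus strand: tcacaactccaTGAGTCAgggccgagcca
The PLAUR window held an AP-1 match beginning 186 bases before the start, and the MMP7 window one at 67 bases. AP-1 matches stood in 7.71% of the 35116 promoters of the same table and Sp1 matches in 45%. No AP-1 match was found in the windows of TIMP3, MMP14, TIMP1 or PLAU. These matches describe the letters in the windows only.

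To compare levels between genes, CPM was divided by the exon length in kilobases of GENCODE 29 (FPKM). TIMP1 and MMP14 stood highest, with means over the 12 libraries of 58.6 and 58.4 FPKM. PLAUR followed at 20.7 FPKM and TIMP3 at 11.2. TIMP2 averaged 6.86 FPKM and PLAU 5.98. MMP9 and MMP19 averaged 1.79 and 1.72 FPKM, and MMP7 and MMP1 only 0.0698 and 0.0593. The neighbours TIMP1 and MMP14, TIMP2 and PLAU, MMP9 and MMP19, and MMP7 and MMP1 lay within the spread of their libraries.

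The secreted collagenase gene MMP1 gave 25 counts in all. It had 0, 0 and 2 counts in the mono-culture libraries, 0, 0 and 7 with control ECs, 2, 0 and 1 with senECs, and 3, 2 and 8 with EGCG-treated senECs. MMP7, the gene of matrilysin, gave 36 counts. Its counts were 3, 6 and 6 in mono-culture, 11, 1 and 2 with control ECs, 1, 1 and 0 with senECs, and 2, 3 and 0 with EGCG-treated senECs. Neither gene exceeded 11 counts in a library, so small differences in them were not detectable at this depth. The EGCG-treated senEC libraries lay above all those of mono-culture and of the senEC group in MMP1 CPM, as did those of 6.4% and 3.17% of all genes, on 13 counts in total.

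TIMP3, the inhibitor that binds to the extracellular matrix (chr22:32801701-32863043, plus strand), had a lower mean in each co-culture than in mono-culture. In mono-culture it stood at 60.2, 51.1 and 98.4 CPM in replicates 1, 2 and 3. With control ECs it stood at 46.3, 40.5 and 66.2 CPM. With senECs (replicates 1, 2 and 5) it stood at 42.2, 34.9 and 53.6 CPM. With EGCG-treated senECs it stood at 37.2, 38.4 and 49.9 CPM. All 3 libraries of the EGCG-treated senEC group were below all 3 of mono-culture, a separation shown in that direction by 7.72% of all genes, while the other co-cultures overlapped mono-culture. The mono-culture mean was 69.9 ± 25.1 CPM, against 51.0 ± 13.5 for control ECs, 43.6 ± 9.44 for senECs and 41.8 ± 6.99 for EGCG-treated senECs (SD, n = 3 each).

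In edgeR's quasi-likelihood test over all 12 libraries, with Benjamini-Hochberg adjustment over the 25873 genes, the log2 fold change of TIMP3 was -0.46 (SE 0.21) with control ECs, -0.68 (SE 0.21) with senECs and -0.74 (SE 0.22) with EGCG-treated senECs, each against mono-culture. The adjusted p-values were 0.755, 0.235 and 0.238, so none passed 0.05. Without mono-culture replicate 3, the highest of all 12 libraries, the log2 fold changes of TIMP3 were -0.12, -0.36 and -0.42. When every gene with a count was tested, all 3 passed, with adjusted p = 0.0427, 1.85e-05 and 1.31e-06. A fit with the replicate number as a block, given below, also called all 3. None of the 3 passed with at least 10 counts asked of every library, in DESeq2, with its size factors in edgeR or with only the 6 libraries compared. Why the wider filter lowered the adjusted p-values was not tested.

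**Figure D1:**
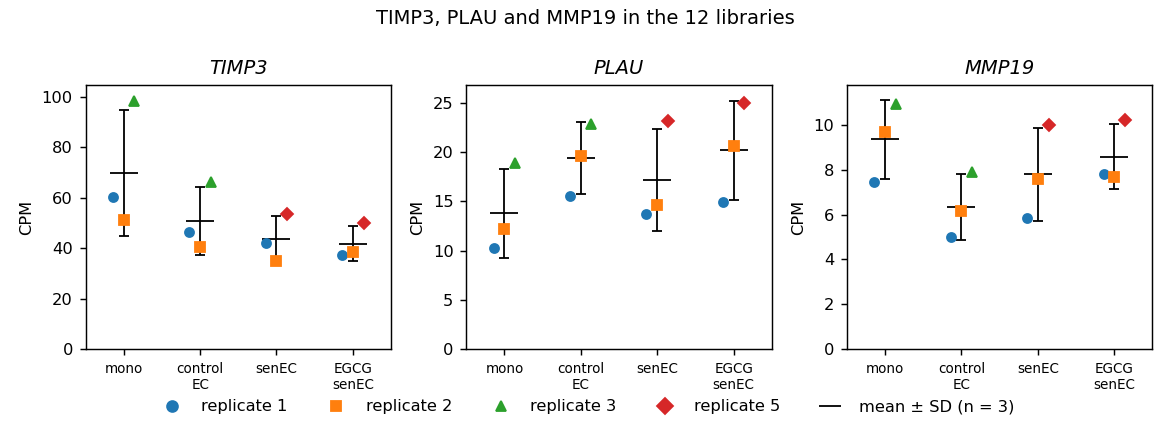
CPM of TIMP3, PLAU and MMP19 (linear axes from 0) in each library of the 4 groups, with symbols by replicate number and lines for the mean ± SD of 3 libraries. TIMP3 lay at 51.1 to 98.4 CPM in mono-culture and at 37.2 to 49.9 CPM with EGCG-treated senECs.

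PLAU, the gene of urokinase (chr10:73909177-73917497, plus strand), stood at 10.3, 12.2 and 18.9 CPM in mono-culture, at 15.6, 19.6 and 22.9 CPM with control ECs, at 13.8, 14.7 and 23.1 CPM with senECs and at 14.9, 20.6 and 25.0 CPM with EGCG-treated senECs. Every co-culture had a higher mean than mono-culture, but each overlapped it. The log2 fold change of PLAU against mono-culture was 0.49 (SE 0.23, adjusted p = 0.770 in edgeR) with control ECs and 0.55 (SE 0.24, adjusted p = 0.544) with EGCG-treated senECs. Without mono-culture replicate 3 these were 0.78 and 0.84.

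MMP19, a secreted metalloproteinase that cleaves basement membrane proteins, stood at 7.46, 9.69 and 10.9 CPM in mono-culture and at 4.99, 6.15 and 7.89 CPM with control ECs. It stood at 5.83, 7.58 and 9.97 CPM with senECs and at 7.80, 7.69 and 10.2 CPM with EGCG-treated senECs. The control EC and mono-culture libraries overlapped, and the log2 fold change of MMP19 between them was -0.57 (SE 0.22, adjusted p = 0.690 in edgeR).

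The gelatinase gene MMP9 (chr20:46008908-46016561, plus strand) stood at 1.18, 1.35 and 3.53 CPM in mono-culture and at 1.49, 3.43 and 6.78 CPM with control ECs. With senECs it stood at 1.65, 1.97 and 14.9 CPM and with EGCG-treated senECs at 1.71, 1.91 and 10.2 CPM. In each of the last 2 groups replicates 1 and 2 were under 2 CPM and replicate 5 stood apart. The log2 fold change of MMP9 with control ECs against mono-culture was 0.93 (SE 0.78, adjusted p = 0.933 in edgeR), and ranged from 0.28 without control EC replicate 3 to 1.61 without mono-culture replicate 3. The other 2 fold changes of MMP9 against mono-culture are given because the wider filter below called them. They were 1.59 (SE 0.77, adjusted p = 0.463 in edgeR) with senECs and 1.20 (SE 0.77, adjusted p = 0.699) with EGCG-treated senECs. Leaving out replicate 5 of the co-culture compared turned both to -0.17.

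For MMP7, senECs against mono-culture had 2 counts against 15, a ratio of 0.132 with an exact 95% interval of 0.0147 to 0.569 for counting error only, and an adjusted p of 0.448 in edgeR. The senEC libraries lay below all mono-culture libraries, as did those of 8.5% of all genes.

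Taking the comparisons with mono-culture as a whole, 0 of the 10 genes passed the adjusted p of 0.05 in edgeR with control ECs, where 0.143% of all genes did, 0 of 10 with senECs, where 0.309% did, and 0 of 10 with EGCG-treated senECs, where 0.213% did. DESeq2 also called 0 of 10 in each, with 0.464%, 1.34% and 0.889% of all genes called. When every gene with a count was tested, 34767 in all, edgeR called 1 of the 10 with control ECs (TIMP3, beside 0.641% of all genes), 2 with senECs (MMP9 and TIMP3, beside 1.69%) and the same 2 with EGCG-treated senECs (beside 1.08%). At an unadjusted p under 0.05, edgeR gave 2 of the 10 in each comparison, MMP19 and TIMP3, MMP7 and TIMP3, and PLAU and TIMP3, beside 6.52%, 11% and 8.58% of all genes. The median log2 fold change of the 10 was -0.12, 0.23 and 0.13. Over all genes tested it was 0.01, -0.02 and 0.00. These 3 comparisons share the mono-culture libraries.

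**Figure D2:**
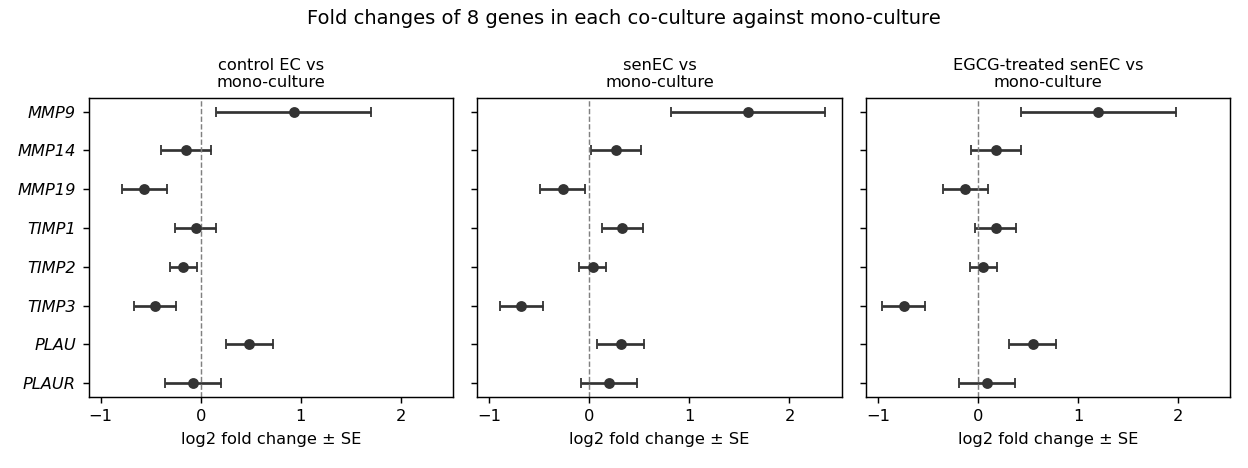
Log2 fold change (points) with its standard error (bars) of the 8 genes other than MMP1 and MMP7, for each co-culture against mono-culture, from edgeR. TIMP3 lay left of 0 in all 3 panels, at -0.46, -0.68 and -0.74, and MMP9 had the widest bars.

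Mono-culture and control EC libraries carry the same replicate numbers, 1 to 3. Deviations of same-numbered libraries from their group means correlated at 0.651, 0.109 and 0.531, so only weakly for number 2. Mono-culture replicate 2 correlated more with control EC replicate 3, at 0.212. With the number as a block in edgeR, 3 of the 10 genes passed between these groups, against 1.81% of all genes. TIMP3 was lower with control ECs, with a log2 fold change of -0.43 (adjusted p = 0.00255). PLAU was higher at 0.51 (adjusted p = 0.0108), and MMP9 was higher at 0.93 (adjusted p = 0.0186). MMP19 was at -0.57 and did not pass, with an adjusted p of 0.0607. In all 3 pairs TIMP3, MMP19, MMP14 and TIMP2 were lower and PLAU and MMP9 higher with control ECs, while TIMP1 and PLAUR differed in sign between pairs. The share of all genes with the same sign in all 3 pairs was not computed, so these signs are description only. The log2 differences were small for MMP14 (-0.08, -0.24 and -0.13) and TIMP2 (-0.05, -0.19 and -0.25), and neither gene passed with the block. TIMP2 in the control EC group lay below all mono-culture libraries, as did 6.51% of all genes. In the other 5 comparisons, which share only 2 numbers or had a pair whose deviations correlated below 0.1, the block called 1 of 10 for senEC against mono-culture (2.74% of all genes) and 2 of 10 for EGCG-treated senEC against mono-culture (1.64%). It called 0 of 10 for senEC against control EC (0.591%), EGCG-treated senEC against senEC (0.0502%) and EGCG-treated senEC against control EC (0.131%).

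Between the co-cultures, where the question was whether senescence of the ECs and its EGCG treatment changed the monocytes, 0 of 10 genes passed in edgeR for senECs against control ECs, 0 of 10 for EGCG-treated senECs against senECs, and 0 of 10 for EGCG-treated senECs against control ECs. The share of all genes that passed was 0% in each, while 6.61%, 2.22% and 4.55% of all genes and 0 of the 10 had an unadjusted p under 0.05. DESeq2 called 0 of 10 in each too. With senECs against control ECs the libraries overlapped for all 10 genes, while 5.31% of all genes had every senEC library above and 5.66% every one below. They also overlapped for all 10 with EGCG-treated senECs against control ECs, where 4.04% of all genes lay wholly above and 5.45% below. With EGCG-treated senECs against senECs 0 of the 10 lay wholly below, as 2.31% of all genes did, and MMP1 was the 1 gene above. Log2 fold changes of the 8 genes other than MMP1 and MMP7 ran from -0.23 for TIMP3 to 0.66 for MMP9 with senECs against control ECs. They ran from -0.39 for MMP9 to 0.23 for PLAU with EGCG-treated senECs against senECs, and from -0.28 for TIMP3 to 0.44 for MMP19 with EGCG-treated senECs against control ECs.

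MMP14, the membrane-bound activator (chr14:22836557-22849027, plus strand), stood at 179, 191 and 296 CPM with control ECs, at 202, 255 and 432 CPM with senECs and at 228, 237 and 371 CPM with EGCG-treated senECs, beside 189, 226 and 324 CPM in mono-culture. The groups overlapped throughout. TIMP1, the inducible inhibitor, stood at 69.5, 64.5 and 106.3 CPM with control ECs, at 82.0, 86.0 and 144.7 CPM with senECs and at 79.7, 92.7 and 109.2 CPM with EGCG-treated senECs, beside 68.9, 81.9 and 98.1 CPM in mono-culture, again with overlap. The median log2 fold change of the 10 genes with senECs against control ECs was 0.24, and moved from -0.22 without senEC replicate 5 to 0.52 without control EC replicate 3.

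**Figure D3:**
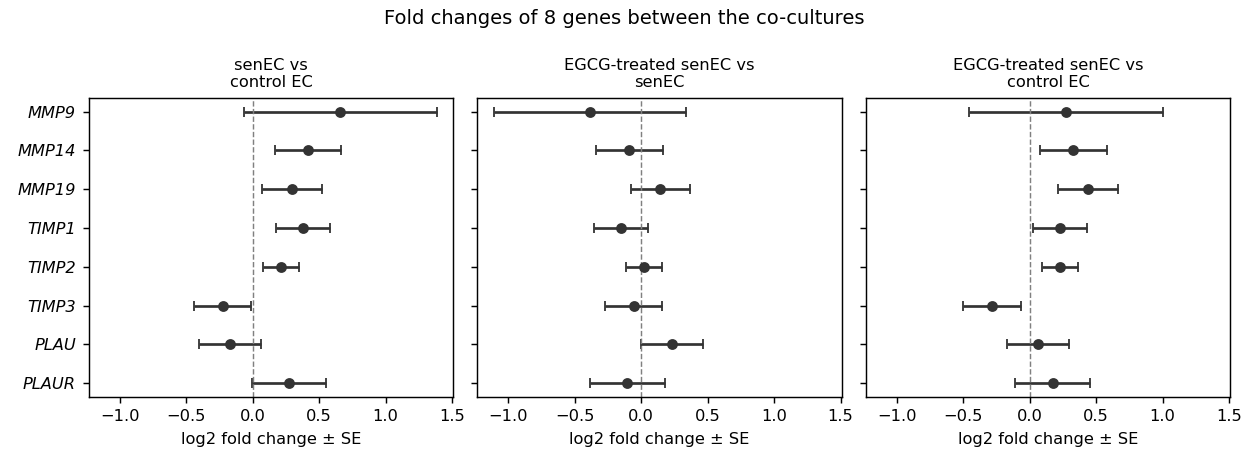
Log2 fold change (points) with its standard error (bars) of the same 8 genes between the co-cultures, from edgeR. The points ran from -0.39 to 0.66, both for MMP9, and none passed the adjusted p of 0.05.

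More of these genes passed the test for the replicate number than for any of the 6 comparisons of groups. PLAUR, the urokinase receptor (chr19:43646095-43670547, minus strand), stood at 55.3, 86.5 and 124.6 CPM in mono-culture replicates 1, 2 and 3 and at 62.8, 75.6 and 113.9 CPM with control ECs. In replicates 1, 2 and 5 it stood at 66.6, 96.9 and 141.9 CPM with senECs and at 67.3, 91.1 and 125.5 CPM with EGCG-treated senECs. The library numbered 3 or 5 was thus the highest of its group in 4 of 4 groups. The same held for MMP9, MMP14, MMP19, TIMP1, TIMP2, TIMP3 and PLAU, 8 of the 10 genes, beside 4.35% of all genes. For TIMP2 with control ECs this was a near tie, at 36.23 CPM in replicate 3 and 36.22 in replicate 1. In 0 of the 10 was it the lowest in 4 of 4 groups, as it was in 2.96% of all genes. TIMP2, which both inhibits MMP2 and aids its activation, ran from 31.5 to 48.2 CPM, and its highest library was 1.53 times its lowest, the smallest such fold among these 8 genes.

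In edgeR, with group and number in 1 model, the number passed an adjusted p of 0.05 for 8 of the 10 genes, all but MMP1 and MMP7, against 9.61% of all genes. The adjusted p was 1.49e-33 for MMP9, 3.76e-28 for PLAUR and 1.06e-24 for MMP14, and 0.0206 for MMP19 and 0.0464 for TIMP2 at the other end. DESeq2 called 6 of the 10, without MMP19 and TIMP2, against 6.63% of all genes. In edgeR the number also passed for 45% of the other proteolysis genes tested, 66.7% of the monocyte markers and 13.3% of the endothelial markers tested. What the numbers stand for is not given in the sources used here. Number 3 occurs only in the mono-culture and control EC groups and number 5 only in the other 2.

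**Figure D4:**
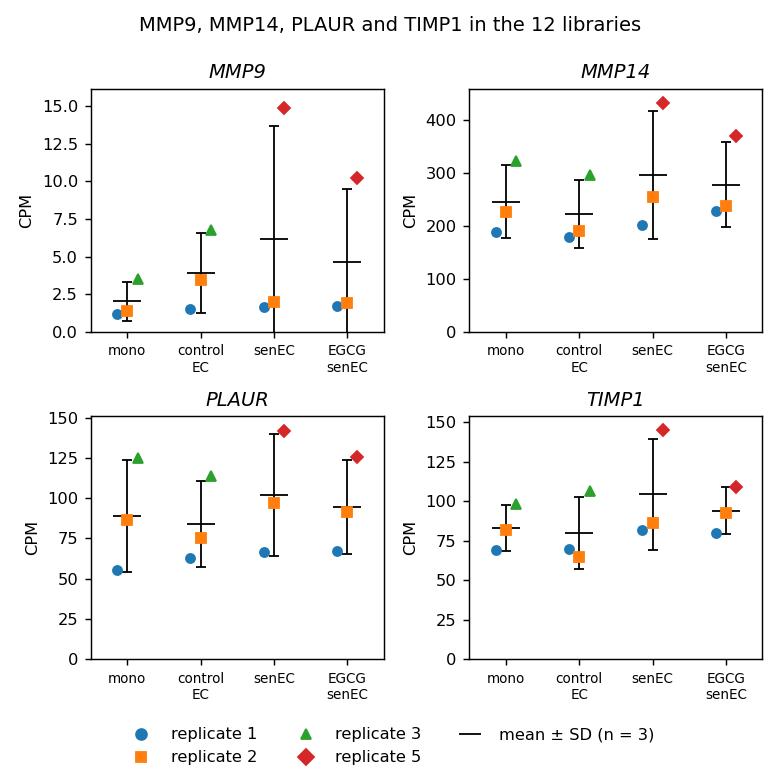
CPM of MMP9, MMP14, PLAUR and TIMP1 (linear axes from 0) in each library, with symbols by replicate number and lines for the mean ± SD of 3 libraries, whose lower ends for MMP9 are clipped at 0 in the senEC and EGCG-treated senEC groups. Replicates 3 and 5 were the highest of their groups in all 4 panels.

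**Figure D5:**
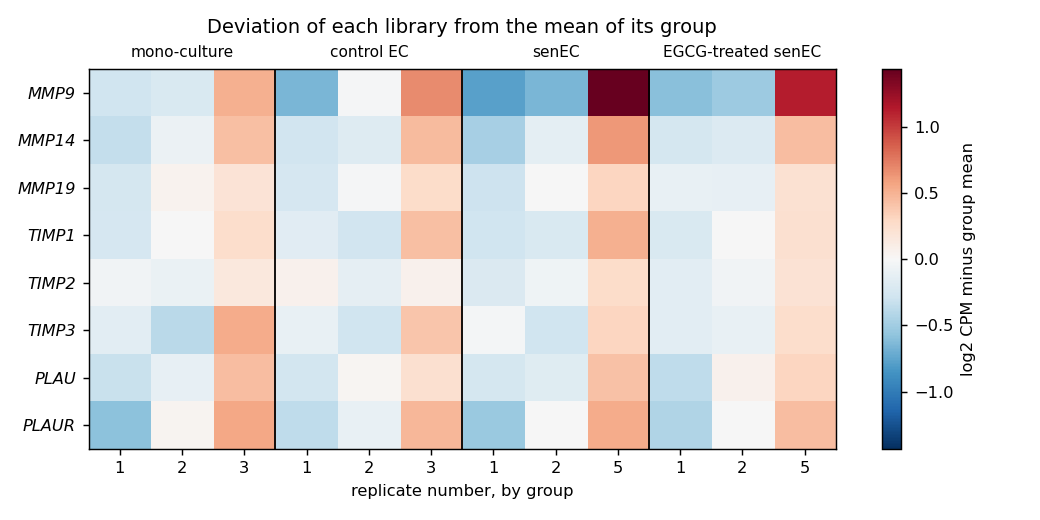
Deviation of each library from the mean of its group in log2 CPM (pseudocount 2), in colour from blue (below) to red (above), for 8 genes (rows) and 12 libraries (columns, by group and replicate number). The columns numbered 3 and 5 were above the group mean for all 8 genes, faintly so for TIMP2 with control ECs.

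The genes whose centred log2 CPM over the 12 libraries lay closest to PLAUR were WTAP, FTH1 and MARCKS, with root mean square differences of 0.0946, 0.102 and 0.102, where the median gene stood at 0.430. Closest to TIMP3 were ACPP, CTSO and KLF10 at 0.177, 0.195 and 0.216, where the median gene stood at 0.420. Both patterns include the replicate numbers.

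Of 71 other genes of proteolysis, 60 were tested. With senECs against mono-culture 0 were higher and 1 lower, and in the other 5 comparisons 0 passed in edgeR. The 1 gene was ADAMTS1, a secreted protease of proteoglycans, with means of 32.8 CPM in mono-culture and 17.1 with senECs, a log2 fold change of -0.93 (SE 0.18) and an adjusted p of 0.0244. The number passed for 27 of the 60.

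Partners of the 10 genes gave the following group means, in the order mono-culture, control EC, senEC and EGCG-treated senEC. FURIN, the proprotein convertase that activates pro-MMP14, averaged 97.6, 119.0, 130.2 and 130.2 CPM, and its libraries lay above all mono-culture libraries in each co-culture, as did those of 6.25%, 8.18% and 6.4% of all genes. The adjusted p-values of FURIN in edgeR were 0.647, 0.126 and 0.148. BSG, the MMP inducer basigin, averaged 669.6, 713, 824 and 771 CPM. Its senEC libraries lay above all those of mono-culture and of the control EC group, as did those of 8.18% and 5.31% of all genes, and its EGCG-treated senEC libraries lay above all those of mono-culture (6.4%). MMP2, the gelatinase that MMP14 activates, averaged 127, 105, 135 and 114 CPM. The sheddase ADAM17 averaged 147, 129, 124 and 123 CPM. SERPINB2, an inhibitor of urokinase, averaged 7.97, 6.71, 6.52 and 8.05 CPM. ADAM8, a membrane protease of leukocytes, averaged 0.936 to 1.45 CPM, PLAT, the tissue plasminogen activator, 0.138 to 0.234 CPM, and LCN2, which binds MMP9, was at 0 counts in all 12 libraries. None of these partners that were tested passed in any of the 6 comparisons.

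Exons of some of the 10 genes overlap other annotated genes. TMEM198B, on the opposite strand to MMP19, had 69 to 172 counts per library, near the 104 to 198 of MMP19. C10orf55, opposite PLAU, had 1 to 14 counts. Whether strand was used in counting is not given in the sources used here, so reads in the exon stretch that MMP19 and TMEM198B share cannot be assigned with certainty. CEP295NL overlaps exons of TIMP2 on the same strand and had 3 to 21 counts per library, beside 592 to 876 for TIMP2.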

How the data were processed

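Messenger RNA of LPS-stimulated THP1 cells was sequenced as paired reads. The submitters' processing notes name HISAT2 and the hg38 build. The deposited table holds whole-number counts per gene, with no normalization. The paper states that its own analysis began from a count matrix of Novogene, the sequencing company. The counting program and annotation are not given in the sources used here. Of its columns, 4 matched no described sample and were not used. The genes and gene lists were chosen with earlier results of these data known.

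Groups came from the sample titles. Genes whose counts summed to 10 or more were tested in R 4.3.3 with edgeR 4.0.16 (TMM, quasi-likelihood, all 12 libraries, group as the only factor) and Benjamini-Hochberg adjustment over all 25873 genes. Standard errors were taken as the log2 fold change over the square root of F. All 10 genes were named, with a fold change where edgeR, DESeq2 1.42.0 or the fit with a replicate block called it, or the unadjusted p was under 0.05. Values of 1 gene of the lists are not reported here. The fits were tested on simulated counts with changes placed in the senEC group only. The simulation held no effect of the replicate number, so it does not show how the fits behave under one. Given coordinates are those of GRCh38. Exon lengths and gene positions came from GENCODE 29.

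The numbers were taken to pair mono-culture with control EC libraries. Over 9351 genes, deviations from the group means of same-numbered libraries correlated at 0.651, 0.109 and 0.531. Control EC replicate 3 and mono-culture replicate 2, of different numbers, correlated at 0.212, above the pair numbered 2. Libraries numbered 5 also correlated with those numbered 3, which the block held as separate numbers. The values were 0.478 (senEC) and 0.547 (EGCG-treated senEC) with mono-culture, and 0.618 (senEC) and 0.607 (EGCG-treated senEC) with control EC. The check rests on the data, since the labels do not say what a number marks. Alternatives were DESeq2, its size factors in edgeR, 2 filters, the 6 libraries compared, the block, and each library left out.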

Additional observations from a re-analysis of the deposited data

How the results depend on the processing

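Counts of all genes called moved by over 1.5 times in these settings. With DESeq2 they were 120 for control ECs, 347 for senECs and 230 for EGCG-treated senECs, each against mono-culture. With every gene with a count they were 223, 588 and 377, and 114, 14 and 43 for senECs against control ECs, EGCG-treated senECs against senECs and EGCG-treated senECs against control ECs. With the replicate block they were 469, 709 and 424, then 153, 13 and 34. With only the 6 libraries compared they were 20 with senECs and 35 with EGCG-treated senECs, and with at least 10 counts in every library 36 with EGCG-treated senECs and 1568 for the replicate number. The cause was not tested.

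Of the 10 genes, every gene with a count gave 1 call with control ECs (TIMP3), 2 with senECs and 2 with EGCG-treated senECs (MMP9 and TIMP3 in both). The replicate block gave 3, 1 and 2. The other co-cultures share only the numbers 1 and 2 with mono-culture, too few pairs to take the numbers as pairing, although every same-number correlation was positive. With the block, TIMP3 was at -0.55 (adjusted p = 0.000293 in edgeR) with senECs and -0.60 (adjusted p = 5.65e-05) with EGCG-treated senECs, and PLAU at 0.55 (adjusted p = 0.0276). For EGCG-treated senECs against senECs the 3 same-number correlations were 0.635, 0.0993 and 0.387, the lowest just under the 0.1 asked of every pair. The pair numbered 2 of control EC and mono-culture, at 0.109, was only just over it, so this limit parts 2 close values. The block called none of the 10 between co-cultures. Asking at least 10 counts of every library left 8 of the 10 genes to test and called 0 of them in each of the 6 comparisons. DESeq2, its size factors in edgeR and the fits of only the 6 libraries compared also called none.

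Leaving out each library gave 11 to 44, 19 to 255 and 12 to 100 calls against mono-culture, 0 to 1, 0 to 0 and 0 to 1 between co-cultures, and 1761 to 3598 for the number. For the 10 genes it gave 0 to 0 in all 6 comparisons and 6 to 8 for the number. The median log2 fold change of the 10 ranged from -0.33 to 0.09, -0.12 to 0.49 and -0.12 to 0.36 against mono-culture, and from -0.22 to 0.52, -0.15 to 0.32 and -0.01 to 0.47 between co-cultures. None of these alternatives reversed a fold change that the replicate block called or that had an unadjusted p under 0.05 in edgeR. The fold changes of MMP9 with senECs and with EGCG-treated senECs against mono-culture were called by the wider filter only. Both turned negative without replicate 5 of the co-culture compared. MMP1 and MMP7 are limited by depth.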
